A study of Homo sapiens with 4 samples.

Results

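The MTRNR2L rows are nuclear genes and pseudogenes whose sequence derives from MT-RNR2, the mitochondrial gene of 16S ribosomal RNA. They were followed here in RNA pulled down with the m6A demethylase ALKBH5. The rows were taken by symbol, MTRNR2L1 to MTRNR2L10, and all 10 were found among the 26830 gene symbols of the table. The symbols were chosen by their TPM in the pull-down and input libraries, so the difference between those libraries is given as a description, without a test. The related genes MTRNR2L11, MTRNR2L12 and MTRNR2L13 were not found among those symbols, and no values of MT-RNR2 itself were analysed here.

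The cells were NOMO-1, a human acute myeloid leukaemia line with monocytic features. All 4 libraries came from cells that carried a lentiviral 3xFlag-ALKBH5 construct for overexpression, had been selected with puromycin and by GFP sorting, and were UV crosslinked before lysis. In 2 Flag-IP libraries (numbered 1 and 3) RNA was recovered with an anti-Flag antibody, and 2 input libraries (1 and 3) held RNA from the same kind of cells without antibody. No untagged pull-down was analysed here, the promoter of the transgene is not given in the labels, and whether the libraries of 1 group stem from different cultures is not stated there. Values are TPM, abundances per transcript length scaled to the same total in each library, so read depth and counting error are unknown.

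Mitochondrial 16S rRNA is the RNA core of the large subunit of the mitochondrial ribosome. A short reading frame inside it encodes humanin, a peptide known for protecting cells from apoptosis. Copies of mitochondrial DNA that entered the nuclear genome carry related frames, and those annotated as MTRNR2L genes are named humanin-like. Reads from 16S rRNA and from such copies can be alike, and RSEM shares a read that maps to several places among the rows it could come from. The level of each MTRNR2L row is therefore uncertain, and nuclear and mitochondrial origin of its reads cannot be told apart in these values.

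The humanin frame of 16S rRNA is shown with its counterpart in the 3 most abundant rows, in a row of middle level (MTRNR2L10) and in a row listed at 0 (MTRNR2L7). Bases that differ from 16S rRNA are in capitals, and all sequences run 5′ to 3′ on the strand of the gene in GENCODE 29 (GRCh38).
MT-RNR2: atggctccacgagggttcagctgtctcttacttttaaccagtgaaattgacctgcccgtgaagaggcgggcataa
MTRNR2L2: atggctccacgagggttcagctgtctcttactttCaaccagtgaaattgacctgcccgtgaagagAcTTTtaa
MTRNR2L8: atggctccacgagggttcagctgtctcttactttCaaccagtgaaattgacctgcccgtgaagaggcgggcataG
MTRNR2L1: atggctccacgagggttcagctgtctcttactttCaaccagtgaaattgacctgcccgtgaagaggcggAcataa
MTRNR2L10: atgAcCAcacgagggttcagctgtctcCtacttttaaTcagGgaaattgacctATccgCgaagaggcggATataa
MTRNR2L7: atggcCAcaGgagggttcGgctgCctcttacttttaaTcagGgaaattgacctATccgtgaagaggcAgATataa

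These windows lie at chrM:2633-2707 (plus strand) for MT-RNR2, chr5:80650014-80650086 (minus) for MTRNR2L2, chr11:10508152-10508226 (minus) for MTRNR2L8, chr17:22524062-22524136 (plus) for MTRNR2L1, chrX:55181920-55181994 (minus) for MTRNR2L10 and chr10:37601970-37602044 (minus) for MTRNR2L7. MTRNR2L8 and MTRNR2L1 each differed from 16S rRNA at 2 of 75 bases, MTRNR2L10 at 11 and MTRNR2L7 at 12. Counted from the first base of the frame, the substitution T35C was present in 8 of the 10 rows, all but MTRNR2L7 and MTRNR2L10. MTRNR2L2 carried the same first 65 bases as MTRNR2L8 and MTRNR2L1 and then diverged, with 2 bases fewer.

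MTRNR2L2 and MTRNR2L8 held most of the signal. In Flag-IP 1 and 3 MTRNR2L2 had 836.64 and 604.59 TPM, against 2066.46 and 3114.06 TPM in input 1 and 3. Both Flag-IP libraries were below both inputs, and the Flag-IP mean (720.6 ± 164) was 0.278 times the input mean (2590 ± 741; SD, n = 2 in each group throughout). In GENCODE 29 the gene is a processed pseudogene of 87 bases at chr5:80650000-80650086. The RefSeq table (GRCh38.p14) gives MTRNR2L2 another interval, 611 bases long, that does not overlap the GENCODE one, and which model the authors' TPM rests on is not given in the sources used here.

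MTRNR2L8 (chr11:10507887-10509189, minus strand) is a gene of 1 exon that GENCODE 29 annotates as protein coding, with a coding sequence of 72 bases; the RefSeq table lists it, like all 10 rows, as a pseudogene. Its level was 708.88 and 594.44 TPM in the Flag-IP libraries, against 1343.79 and 1515.08 TPM in the inputs. The groups did not overlap, and the Flag-IP mean (651.7 ± 80.9) was 0.456 times the input mean (1429 ± 121). MTRNR2L1 (chr17:22523111-22524663, plus strand), of the same kind, was at 54.88 and 57.57 TPM in Flag-IP and at 132.54 and 126.37 TPM in input. Its groups were also apart, with a spread between libraries (SD 1.90 in Flag-IP and 4.36 in input) far smaller than the gap, and a ratio of means of 0.434.

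MTRNR2L10 and MTRNR2L9 came next, both between 21.47 and 46.09 TPM in input. MTRNR2L10 (chrX:55181391-55182920, minus strand) was at 16.38 and 27.58 TPM in Flag-IP and 46.09 and 34.13 TPM in input. Flag-IP 3 and input 3 were the closest pair, and the ratio of means was 0.548. MTRNR2L9 (chr6:61574328-61574402, plus strand), in GENCODE 29 a processed pseudogene of 75 bases that covers the frame alone, was at 7.94 and 4.63 TPM in Flag-IP and 21.47 and 30.73 TPM in input. Its ratio of 0.241 was the lowest of the rows that could be given one. The RefSeq table gives MTRNR2L9 an interval of 448 bases, and which model its TPM rests on is likewise not given.

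The other rows were near or at 0. MTRNR2L6 (chr7:142666272-142667718, plus strand) was at 1.68 and 2.28 TPM in Flag-IP and 2.27 and 2.80 TPM in input, so that Flag-IP 3 was at the level of input 1 and the groups overlapped. MTRNR2L4 was at 0.11 and 0.17 TPM in Flag-IP and 0.17 and 0.21 TPM in input, and MTRNR2L3 at 0.10 and 0.05 TPM in Flag-IP and 0.03 and 0.09 TPM in input. These 2 rows are annotated on the strand opposite to their host genes, in introns of AC025283.3 and of RAE1, an mRNA export factor. Values this low cannot show a direction. MTRNR2L5, in an intron of the protocadherin gene PCDH15, and MTRNR2L7 were listed at 0 in all 4 libraries.

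**Figure D1:**
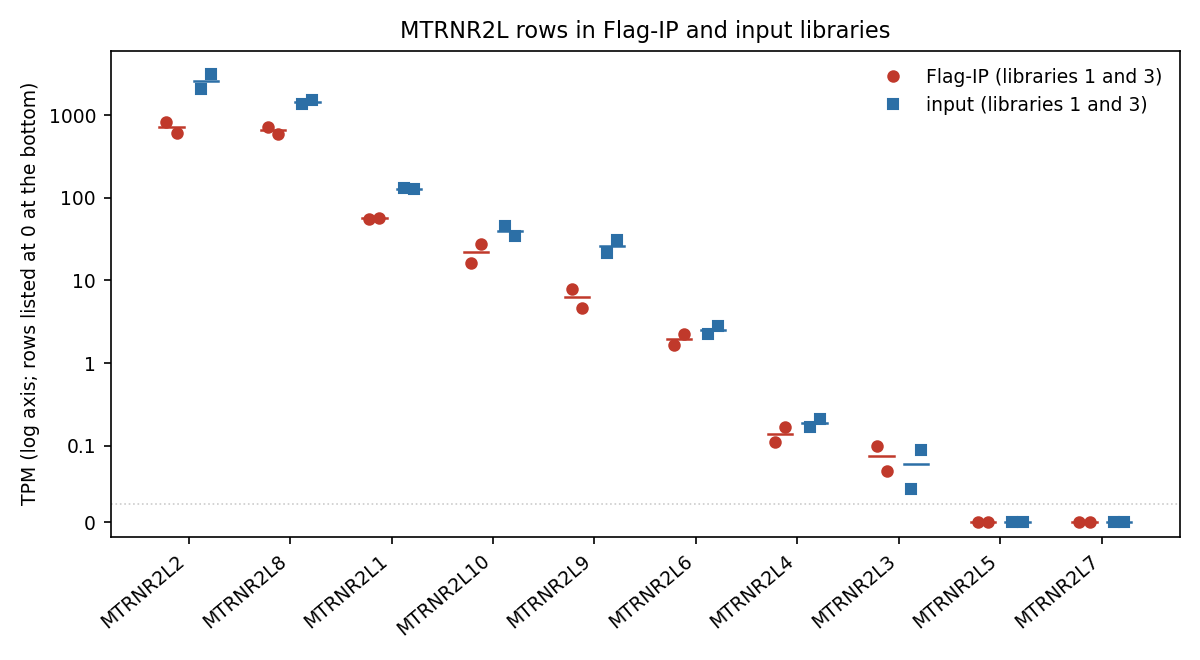
TPM of each MTRNR2L row (log axis, rows listed at 0 drawn at the bottom) in the 2 Flag-IP libraries (red circles, library 1 left of library 3) and the 2 input libraries (blue squares, same order); short lines are group means. MTRNR2L2, MTRNR2L8, MTRNR2L1, MTRNR2L10 and MTRNR2L9 have both Flag-IP values below both input values, the groups of MTRNR2L6, MTRNR2L4 and MTRNR2L3 overlap, and MTRNR2L5 and MTRNR2L7 are at 0.

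The order of the rows by mean level was the same in Flag-IP and in input. MTRNR2L2 and MTRNR2L8, next to each other in that order, overlapped in Flag-IP but not in input, where both values of MTRNR2L2 were higher. From MTRNR2L8 down to MTRNR2L4, each row was above the next in every library within a group. MTRNR2L4 and MTRNR2L3 were apart in input, at 0.17 and 0.21 TPM against 0.03 and 0.09 TPM, and also in Flag-IP, at 0.11 and 0.17 TPM against 0.10 and 0.05 TPM, where the nearest values differed by 1 unit of the last deposited decimal.

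Summed over the 10 rows, the family reached 1627 and 1291 TPM in the Flag-IP libraries, against 3613 and 4823 TPM in input. That is 0.146% ± 0.0237 of all TPM in Flag-IP and 0.422% ± 0.0856 in input, a ratio of 0.346 with no overlap. Without MTRNR2L2 the sum was 790 and 687 TPM in Flag-IP and 1546 and 1709 TPM in input, a ratio of 0.454. Without MTRNR2L8 as well it was 81.1 and 92.3 TPM in Flag-IP and 202.6 and 194.3 TPM in input, a ratio of 0.437. The family sum was thus lower in Flag-IP with or without its largest rows.

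The make-up of the sum also differed between the groups. MTRNR2L2 made up 51.4% and 46.8% of it in Flag-IP, against 57.2% and 64.6% in input. MTRNR2L8 made up 43.6% and 46.0% in Flag-IP and 37.2% and 31.4% in input. The ratio of MTRNR2L2 to MTRNR2L8 within a library was 1.18 and 1.02 in Flag-IP and 1.54 and 2.06 in input, whereas that of MTRNR2L8 to MTRNR2L1 was 12.9 and 10.3 in Flag-IP and 10.1 and 11.99 in input. The first of these ratios was lower in Flag-IP without overlap, and the second overlapped between the groups.

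**Figure D2:**
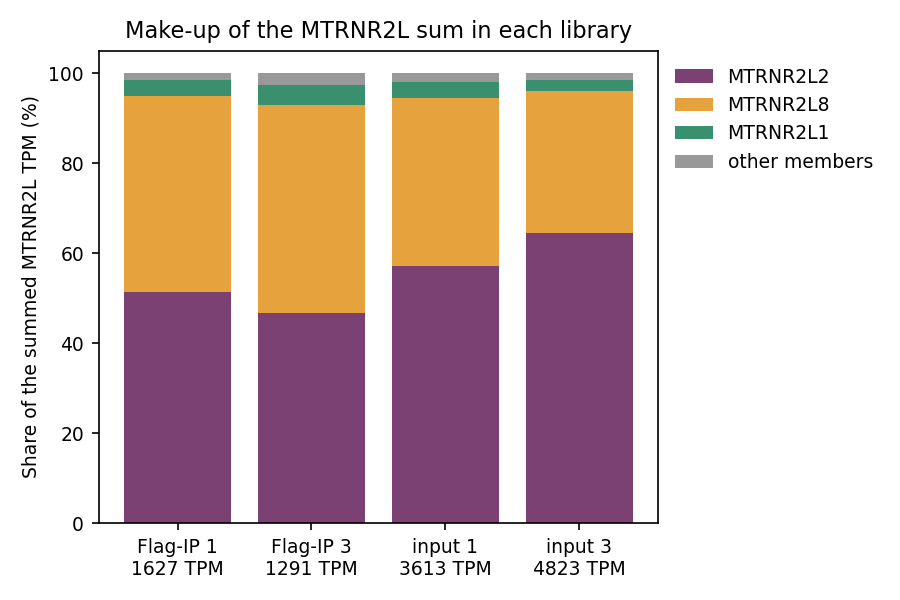
Share of the summed MTRNR2L TPM (%) taken by MTRNR2L2, MTRNR2L8, MTRNR2L1 and the other rows in each library, with the sum under each bar. MTRNR2L2 takes 51.4% and 46.8% in the Flag-IP libraries and 57.2% and 64.6% in the inputs.

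Rows differed in how alike their profiles were over the 4 libraries. Likeness was measured as the root mean square difference of log2 TPM after centring each row, over the 6 rows with a mean of at least 1 TPM. MTRNR2L1 and MTRNR2L8 were closest (0.15) and MTRNR2L2 and MTRNR2L9 next (0.17), while MTRNR2L6 and MTRNR2L9 were farthest apart (0.96). The rows of the second pair are those that GENCODE 29 annotates as processed pseudogenes of under 100 bases.

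The rows differed in their likeness to 16S rRNA (1559 bases), and how it went with their level depended on the measure and on 2 short rows. Over its alignment by BLAST, MTRNR2L8 was 93.0% identical to 16S rRNA, MTRNR2L1 88.5%, MTRNR2L6 85.0% and MTRNR2L10 80.4%. MTRNR2L4, MTRNR2L7, MTRNR2L3 and MTRNR2L5 were between 79.6% and 78.2% identical. MTRNR2L2 and MTRNR2L9 had 98.5% and 90.7% identity, but over alignments of 65 and 75 bases.

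The longest stretch that a row shares with 16S rRNA without any difference was 88 bases in MTRNR2L8, 62 in MTRNR2L10, 60 in MTRNR2L1, 55 in MTRNR2L6, 45 in MTRNR2L3, 35 in MTRNR2L4, 33 in MTRNR2L5 and 32 in MTRNR2L7. It was 34 bases in MTRNR2L2, which had the highest level, and 22 in MTRNR2L9, the shortest stretch at the fifth highest level, both within annotations of under 100 bases. Across all 10 rows Spearman's rho between the stretch and the mean level was 0.50 in Flag-IP and 0.50 in input, that of percent identity over the alignment 0.92 in each, and that of percent identity over the humanin frame 0.69 in each. The other 8 rows have GENCODE transcripts of 739 bases or more. Across them rho was 0.95 for the stretch in Flag-IP and 0.95 in input. For percent identity over the alignment it was 0.93 in each. Among those 8, the order by identity put MTRNR2L10 below MTRNR2L6, which had the lower level, and the order by longest stretch put it above MTRNR2L1, which had the higher level. These are descriptions over rows that share an ancestor and may share reads, and a tie at 0 is among them. Among all 1254 windows of 50 bases in MTRNR2L8, 112 (8.9%) occur unchanged in 16S rRNA, against 13 in MTRNR2L10, 11 in MTRNR2L1, 6 in MTRNR2L6 and 0 in each of the other rows. Between rows, MTRNR2L8 shared 23 such windows with MTRNR2L1, 16 with MTRNR2L2, 7 with MTRNR2L6 and 3 with MTRNR2L10. RefSeq gives MTRNR2L3 607 bases against 1539 in GENCODE, and MTRNR2L6 669 against 1447. It gives MTRNR2L10 1051 against 1530, MTRNR2L1 1249 against 1553 and MTRNR2L4 1231 against 1762. MTRNR2L5 is longer in RefSeq (1687 against 739), and MTRNR2L8 (1290 against 1303) and MTRNR2L7 (1537 against 1535) are close. The models behind the TPM are not given, so the stretches, identities and windows may not describe what was quantified.

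**Figure D3:**
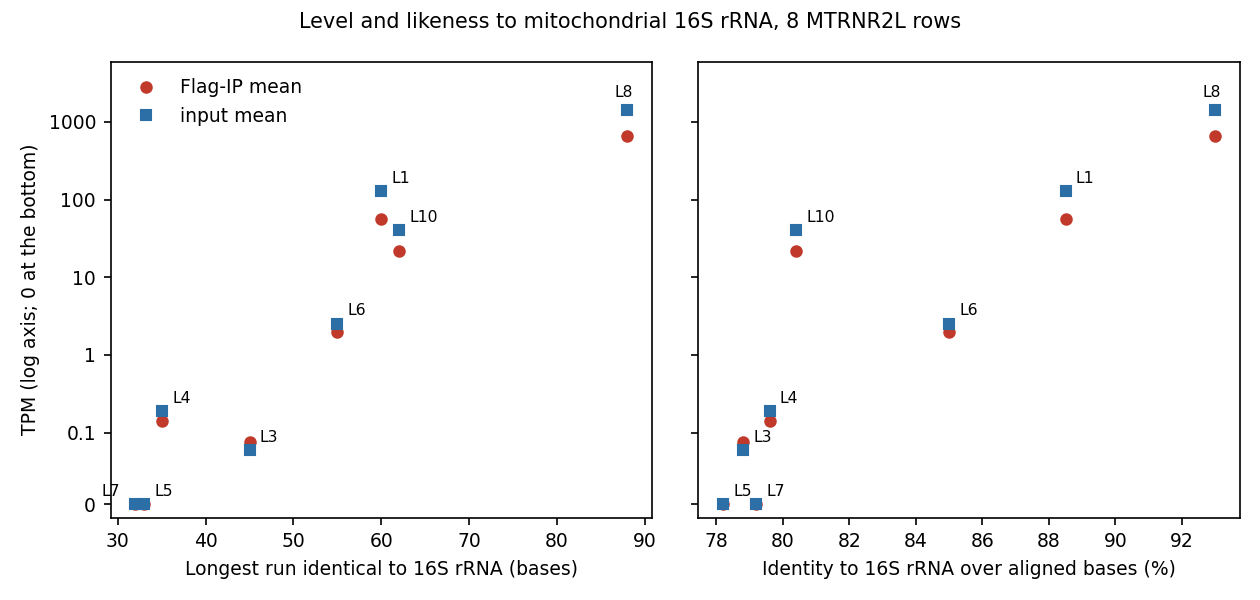
Mean TPM (log axis, 0 at the bottom) of the 8 MTRNR2L rows with GENCODE transcripts of 739 bases or more. MTRNR2L2 and MTRNR2L9 are not drawn. Flag-IP is in red circles and input in blue squares. The levels are set against the longest run of bases identical to 16S rRNA (left) and percent identity over the aligned bases (right). MTRNR2L8, with a run of 88 bases and 93.0% identity, has the highest level of these 8, and MTRNR2L5 and MTRNR2L7, with runs of 33 and 32 bases, are at 0.

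**Figure D4:**
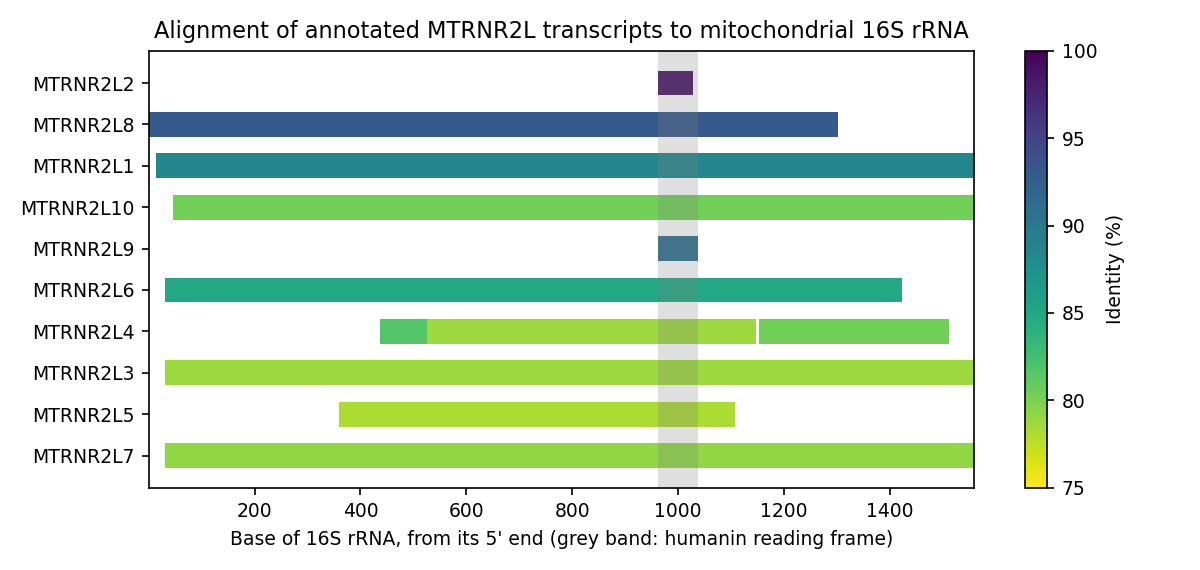
Part of 16S rRNA (bases from its 5′ end) that aligns to each MTRNR2L transcript of GENCODE 29, coloured by percent identity, with the humanin reading frame (bases 963 to 1037) as a grey band. MTRNR2L2 and MTRNR2L9 align within the frame alone, MTRNR2L8 covers bases 1 to 1302, and MTRNR2L1 covers bases 13 to 1559.

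Most tested genes (86.6%) were called higher in Flag-IP on the deposited scale. Genes other than structural RNAs made up 6.95% ± 0.760 of Flag-IP TPM and 3.43% ± 0.322 of input TPM. Structural RNAs were taken by symbol: cytosolic rRNA, small nuclear, nucleolar and Cajal body RNAs, RN7SL, RN7SK, RPPH1, RMRP, Y and vault RNAs. MicroRNAs and the MTRNR2L rows were counted among them. Differences of the MTRNR2L rows were therefore set beside those of all 6487 genes that averaged 1 TPM or more. On log2(TPM + 1) the median of those genes was 0.84, while the median over the 10 MTRNR2L rows was -0.56, the 2 rows at 0 included as 0. The log2 differences were -1.91 for MTRNR2L9, -1.83 for MTRNR2L2, -1.19 for MTRNR2L1, -1.14 for MTRNR2L8, -0.87 for MTRNR2L10 and -0.25 for MTRNR2L6, -0.06 for MTRNR2L4 and 0.02 for MTRNR2L3. Counted from the lowest of the tested genes, MTRNR2L9 was number 2, MTRNR2L2 number 3, MTRNR2L1 number 14 and MTRNR2L8 number 15. MTRNR2L10 was number 24 and MTRNR2L6 number 74.

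Of the 10 rows 6 reached a mean of 1 TPM and entered limma's fit across all genes. In that fit 0.74% of all tested genes were past an adjusted p below 0.05 in the lower direction. Calls of the MTRNR2L rows are not counted. Both Flag-IP libraries lay below both inputs in 5 of all 10 rows and in 1.09% of tested genes. In 0 of the 10 rows the 2 Flag-IP values both exceeded the 2 input values, which they did in 93.1% of tested genes. The rows were chosen by this contrast, so the counts describe them and nothing is read from them.

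With the libraries scaled to the median ratio of the tested genes, the typical gene was at -0.01 and the MTRNR2L rows lay further below it. MTRNR2L2 was at -3.10 and MTRNR2L9 at -3.05, the lowest and second lowest log2 differences of all tested genes. MTRNR2L1 was at -2.43 (number 5 from the lowest), MTRNR2L8 at -2.40 (number 7), MTRNR2L10 at -2.08 (number 17) and MTRNR2L6 at -1.10 (number 112). On this scale both Flag-IP libraries lay below both inputs in 7 of the 10 rows, against 37.1% of tested genes. They lay above both inputs in 0 rows, against 37.0%. These counts too come from rows chosen by this contrast, and nothing is read from them. The tested genes averaged 1 TPM or more as deposited, as did 6 of the 10 rows, so the 2 sets are unlike. MTRNR2L6 and MTRNR2L4 were the rows added by the change of scale, and MTRNR2L4, at 0.11 to 0.21 TPM as deposited, is too low to show a direction. MTRNR2L3 had a difference of -0.06 here, opposite in sign to its deposited one.

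**Figure D5:**
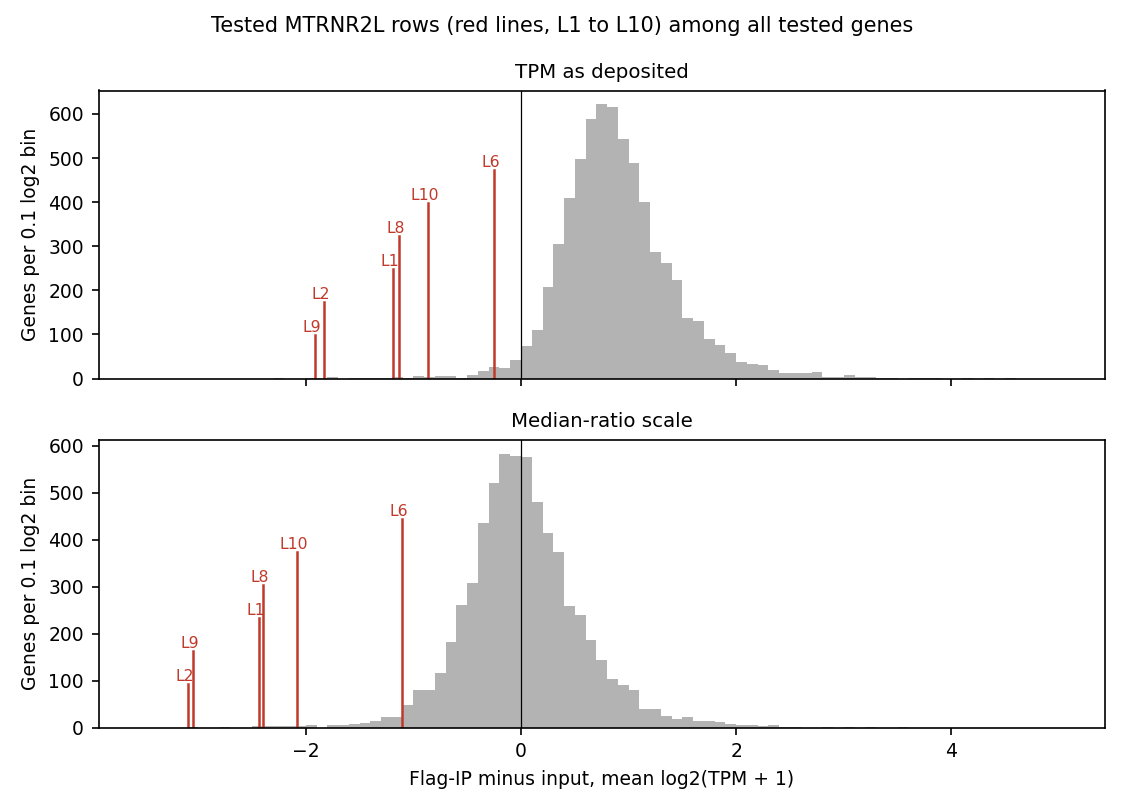
Log2 difference of mean log2(TPM + 1), Flag-IP minus input, for all 6487 tested genes (grey bars, genes per bin of 0.1) and the 6 tested MTRNR2L rows (red lines; their heights only separate the labels), as deposited (top) and on the median-ratio scale (bottom). The rows lie between -1.91 and -0.25 in the top panel, where the median gene is at 0.84, and between -3.10 and -1.10 in the bottom panel, where it is at -0.01.

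Cytosolic ribosomal RNA was set beside the family as the other large ribosomal RNA signal. RNA28S5, the RNA core of the large cytosolic subunit, was at 135763 and 150048 TPM in Flag-IP and 245012 and 276392 TPM in input, a ratio of 0.548. RNA18S5, of the small subunit, was at 460495 and 430008 TPM in Flag-IP and 396597 and 426363 TPM in input, a ratio of 1.08, which is 0.451 after division by the median-ratio factors. Per 1000 TPM of RNA28S5 the MTRNR2L sum was 11.98 and 8.61 TPM in Flag-IP, against 14.7 and 17.5 TPM in input. Per 1000 TPM of RNA18S5 it was 3.53 and 3.00 TPM in Flag-IP and 9.11 and 11.3 TPM in input. The sum was thus lower in Flag-IP against either of these RNAs, by a ratio of 0.639 against RNA28S5 and of 0.320 against RNA18S5. The other cytosolic rows had Flag-IP to input ratios of 0.523 (RNA5-8S5), 0.474 (RNA45S5) and 0.467 (RNA5S9). The MTRNR2L sum had 0.346, and 0.454 without MTRNR2L2, which is near these.

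Among the 1530 other genes above 0 in all libraries with a mean of at least 5 TPM, the profiles most like that of the MTRNR2L sum over the 4 libraries belonged to structural RNAs. They were RNU5F-1, a U5 RNA of the spliceosome (distance 0.26 on the log2 scale), the small nucleolar RNAs SNORA22 (0.29) and SNORA40 (0.33), RNA28S5 (0.38) and RNA45S5, the ribosomal precursor (0.41). Structural RNAs, microRNAs included, were 110 (7.19%) of the 1530 genes compared. The MTRNR2L rows were chosen by the contrast of Flag-IP with input, so profiles near their sum come from genes that are also lower in Flag-IP. Such genes are few: limma called 25 of 1539 averaging 5 TPM or more lower. The share of structural RNAs among them was not counted, so nothing is read from 7.19%. RNU5F-1, the closest, was at 4.51 and 3.04 TPM in Flag-IP and 6.15 and 9.98 TPM in input, with Flag-IP 3 the lowest and input 3 the highest library, as in the MTRNR2L sum.

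Other rows with mitochondrial sequence were looked for after the values were seen, by aligning GENCODE transcripts and RefSeq microRNA hairpins to mitochondrial transcripts (at least 90% identity over at least 50% of the row). Besides MTRNR2L rows, 3 microRNA rows were found. MIR6723 matches the strand opposite to MT-CO1, a subunit of cytochrome c oxidase, at 98.9% over 89 bases, and was at 589.19 and 425.25 TPM in Flag-IP and 247.97 and 313.09 TPM in input, a ratio of 1.81. Divided by the median-ratio factors it was at 341 and 304 in Flag-IP and 413 and 449 in input, so its direction turned with the scale, without overlap on either. MIR4461, opposite to MT-ND4L, was at 2.68 and 2.71 TPM in Flag-IP and 1.37 and 3.33 TPM in input, which overlap, and divided by those factors at 1.55 and 1.94 in Flag-IP and 2.28 and 4.77 in input, which do not. MIR4485 lies within MTRNR2L8 on the same strand and matches 16S rRNA at 93.0% over 57 bases. It was listed at 0 in all 4 libraries, where MTRNR2L8 was at 594.44 TPM or more. TPM of features this short depend strongly on the length correction.

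The nuclear genes that make and mature mitochondrial rRNA were listed beside the MTRNR2L rows, with higher and lower here meaning past limma's threshold. Of 10 listed enzymes of mitochondrial rRNA modification 9 were found in the table and 6 were tested: 5 were higher and 0 lower on the deposited scale, where limma called 86.6% of all tested genes higher and 0.74% lower, and 0 were higher and 2 lower on the median-ratio scale, where it called 22.3% higher and 18.6% lower. The lower ones were MRM2, the 2′-O-methyltransferase of 16S rRNA (-0.42, limma adjusted p = 0.029), and RPUSD4, a pseudouridine synthase of 16S rRNA (-0.44, limma adjusted p = 0.045). MRM2 was at 3.55 and 2.67 TPM in Flag-IP and 1.95 and 1.91 TPM in input. As deposited it was called higher (0.48, limma adjusted p = 0.027), so its direction turned with the scale. RPUSD4 was at 1.80 and 1.96 TPM in Flag-IP and 1.06 and 1.59 TPM in input. RPUSD3, another pseudouridine synthase and the most abundant of the list, was at 6.26 and 6.25 TPM in Flag-IP and 2.85 and 3.32 TPM in input (0.83 deposited, limma adjusted p = 1.8e-04; -0.19 on the median-ratio scale, not passed).

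Of 8 tested assembly factors of the mitochondrial large subunit, 5 were higher and 0 lower as deposited, beside 86.6% of all tested genes higher and 0.74% lower, and 2 were higher and 2 lower on the median-ratio scale, beside 22.3% and 18.6% of all tested genes. DHX30, an RNA helicase, was at 9.26 and 8.05 TPM in Flag-IP and 2.09 and 2.28 TPM in input (0.58 on the median-ratio scale, limma adjusted p = 0.0073), and MTG1, a GTPase, at 0.43 on that scale. NGRN, which is needed for stable 16S rRNA, was at 3.96 and 3.26 TPM in Flag-IP and 2.67 and 2.41 TPM in input (-0.57, limma adjusted p = 0.016), and the GTPase NOA1 was at -0.52. Both passed only on the median-ratio scale.

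Of 13 tested genes of mitochondrial RNA processing and decay all 13 were higher as deposited (86.6% of all tested genes were), and 3 were higher and 2 lower on the median-ratio scale, beside 22.3% and 18.6% of all tested genes. TBRG4, a FASTK family protein of mitochondrial mRNA stability, was at 11.97 and 11.34 TPM in Flag-IP and 2.61 and 3.45 TPM in input (0.59 on the median-ratio scale, limma adjusted p = 0.012). HSD17B10, a subunit of mitochondrial RNase P, was at 12.93 and 12.92 TPM in Flag-IP and 8.36 and 9.62 TPM in input (-0.67, limma adjusted p = 0.0088). Of 5 tested genes of mitochondrial transcription and DNA maintenance all 5 were higher as deposited (again beside 86.6%), and 2 were higher and 1 lower on the median-ratio scale, beside 22.3% and 18.6% of all tested genes. POLG, the mitochondrial DNA polymerase, was at 13.29 and 12.22 TPM in Flag-IP and 2.29 and 2.94 TPM in input (0.88, limma adjusted p = 0.0028), and SSBP1, which binds single-stranded mitochondrial DNA, was at 8.44 and 6.20 TPM in Flag-IP and 4.49 and 4.34 TPM in input (-0.47, limma adjusted p = 0.026).

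Of the 12 proteins listed as reported binding partners of humanin, 4 could be tested, and all 4 were higher as deposited, as were 86.6% of all tested genes. On the median-ratio scale 0 of the 4 passed in limma's fit, where 22.3% of tested genes were higher and 18.6% lower. BAX, a pore-forming apoptosis protein, was at 3.69 and 3.43 TPM in Flag-IP and 1.57 and 2.74 TPM in input, BCL2L11, an activator of BAX, at 1.89 and 1.51 TPM in Flag-IP and 0.64 and 0.73 TPM in input, and TRIM11, a ubiquitin ligase, at 1.59 and 1.69 TPM in Flag-IP and 0.55 and 1.12 TPM in input. The receptor genes FPR1 and CNTFR and the growth factor binding protein IGFBP3 were listed at 0 in all libraries, and the receptor FPR2 stayed at or under 0.22 TPM.

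Across the series, 4076 to 7970 genes per library were at 1 TPM or more, fewer in input. The 13 myeloid identity genes listed summed to between 121 and 135 TPM in Flag-IP and 70.4 and 82.2 TPM in input. LYZ (0.40 to 1.63 TPM), TYROBP (0.07 to 1.06 TPM) and MPO (0.01 to 0.13 TPM) averaged under 1 TPM and were not tested. Of the 10 tested, 8 were higher and 0 lower as deposited (86.6% and 0.74% of all tested genes). On the median-ratio scale 0 were higher and 6 lower (22.3% and 18.6%). CTSG led them at 52.1 and 46.5 TPM in Flag-IP and 28.4 and 30.5 TPM in input, PTPRC had the largest log2 difference (1.34 as deposited) and CEBPA the smallest (0.19). Of the 10 markers of other cell types 5 were at 0 in every library, and NKG7 (21.98 and 23.87 TPM in Flag-IP, 12.02 and 14.60 TPM in input) and PECAM1 were the ones above 1 TPM on average, both higher as deposited and neither past the threshold on the median-ratio scale. Their part in the MTRNR2L values was not tested.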

How the data were processed

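RIP-seq libraries of NOMO-1 cells with 3xFlag-tagged ALKBH5 (2 Flag-IP, 2 input) were used as the authors deposited them, in TPM per gene symbol with 2 decimals. The submitters' processing notes name STAR, RSEM and the build GRCh38; their versions and which gene models were used are not stated there. TPM keeps no depth, so no counting interval is given. Groups came from the sample titles. Genes averaging 1 TPM or more entered a fit of log2(TPM + 1) by limma 3.58.1 in R 4.3.3 (lmFit, eBayes with trend, two-sided, Benjamini-Hochberg over all genes). It was tested on simulated data that gave every gene the same spread, so pooling of the spread was not checked. The p-values measure a spread between libraries that limma pools over genes of like level and that may be technical. On the deposited scale that pooled spread outweighed a gene's own. HSD17B10, at 12.93 and 12.92 TPM in Flag-IP, had a standard error of 0.215, and PTPRC, at 10.08 and 6.78 TPM there, 0.214. Limma's p-values and calls on that scale therefore reflect little of a gene's own spread. The fit has 2 residual degrees of freedom. Median-ratio factors used tested genes above 0 in all libraries. Sequences and coordinates are from GENCODE 29 (GRCh38), aligned with BLAST 2.17.0 and Biopython 1.88. The members and gene lists were chosen with earlier results of these data known. Named were all 10 members, the 5 genes with the nearest profile, and from each list the gene with the highest mean and those with the largest and smallest difference among tested genes; MRM2, MTG1, NOA1, FPR1, FPR2, CNTFR, IGFBP3, MIR4461, MIR4485 and MIR6723 were named after their values were seen. Alternatives were other scalings, pseudocounts and filters, a replicate block and each library left out. Amino acid sequences were not used here.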

Additional observations from a re-analysis of the deposited data

How the results depend on the processing

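The log2 ratio of the summed MTRNR2L TPM was -1.53 as deposited and -2.79 with median-ratio scaling. It was -2.55 after TPM were rescaled to the total without structural RNAs, a total that leaves out the MTRNR2L rows themselves. Without MTRNR2L2, the row with the highest mean, it was -1.14. With single libraries left out it ranged from -1.73 to -1.31. The median log2 difference over the 10 rows was -0.56 as deposited, -1.59 and -1.63 under those scalings, and -0.70 to -0.31 with single libraries left out (-0.31 without Flag-IP replicate 1). Counts of genes higher in Flag-IP were 5616 as deposited, 1444 with median-ratio scaling, 2925 of 11995 tested with structural RNAs left out and 1272 of 1539 averaging 5 TPM or more, and 3939 to 5628 with single libraries left out. Genes lower numbered 48, 1207, 697 and 25 under the same settings, and 28 to 57 with single libraries left out (28 without Flag-IP replicate 1). With the replicate number as a block, 4789 genes were higher and 35 lower, and the log2 ratio of the sum was -1.53; deviations of input 1 and Flag-IP 1 had a correlation of -0.17, and with the numbers crossed, chosen after seeing the data, 5908 were higher and 58 lower. MTRNR2L3 was at 0.02 as deposited and reversed to -0.057 with median-ratio scaling and -0.35 with structural RNAs left out, and ranged from -0.020 to 0.061 with single libraries left out (-0.01 without Flag-IP replicate 1 and -0.020 without input replicate 1). No other row changed sign under any of these settings. The cause of these shifts was not tested. Depth is unknown, which limits rows near 0 TPM.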
